A study of Drosophila melanogaster with 9 samples.

Results

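Myc supercompetitors were compared with control cells of the same disc domain. The rule for this comparison takes every gene of the deposited raw count table that passed a filter on low counts, over the 3 Myc and the 3 gfp libraries. That gave 12741 genes of the 16492 listed, and 6 of the 9 samples of the series. Larvae of both groups were w/+ with a wild-type chromosome 2 (+/+), and both carried 1 chromosome 3 with dpp-gal4 and uas-gfp. In controls its partner was wild type (+), so that GFP alone was driven in the *dpp* stripe. In Myc larvae the partner carried uas-myc, so that the same driver also expressed *Myc*. In both groups GFP-positive cells were sorted by flow cytometry from wing imaginal discs of wandering larvae of the last instar, from at least 60 discs, so each library is a pool of animals. The remaining 3 libraries (uas-hop in place of uas-myc, STAT supercompetitors) were part of the fit and appear below only beside Myc values.

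Myc is a basic helix-loop-helix leucine zipper protein that binds DNA with its partner Max and sets the rate of cell growth. In the fly it is encoded by *dm* (*diminutive*), and its best-known targets are genes of rRNA synthesis, ribosome assembly and translation. In the wing disc, cells with more Myc than their neighbors grow faster and eliminate them, and such winners are called supercompetitors.

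The 9 libraries held 5110634 to 6104490 counts. Of these, 20.8 to 27.2% fell on rRNA genes and 3.09 to 5.19% on the mitochondrial genome. Levels are given in CPM, counts scaled to a common library size, after TMM normalization, which scales each library so that most genes do not shift. A change common to all genes would therefore not be seen, and fewer cells of a type cannot be told apart from less RNA per cell. Fold changes are on the log2 scale as Myc minus gfp, with the standard error (SE) of the fit. P-values are from edgeR's quasi-likelihood test, adjusted by Benjamini-Hochberg over all 12741 genes. An exact permutation test of 3 against 3 libraries cannot go below p = 0.1, so none is given for single genes. The labels do not say whether the libraries of a genotype came from separate crosses, and p-values measure only the spread between these samples.

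Myc 1 stood apart from the other Myc libraries. On the component that held 60.5% of the variance of the 500 most variable genes, Myc 1 scored 14.8, while Myc 2 and Myc 3 scored -24.5 and -17.5. The gfp libraries scored -6.45, -19.1 and -20.2 and the hop libraries 21.2 to 26.1, so Myc 1 lay nearer to hop and gfp 1 lay nearest to it among the controls. The next component (10.9%) placed all 3 Myc libraries at -13.2 to -8.41 and all 3 gfp libraries at 6.71 to 10.3. Spearman's rho over genes was 0.931 from Myc 1 to Myc 2 and 0.940 from Myc 1 to Myc 3, against 0.971 between Myc 2 and Myc 3. Over all genes tested Myc 1 was the highest of the 3 Myc libraries at 36.1%, and among the genes that rose in Myc at 41.8%. Values without Myc 1 are given below where leaving it out ends a call or moves a count of calls or a printed median by over 1.5 times.

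*dm* was higher in all Myc libraries. Its level (chromosome X, 3373159 to 3391697 of BDGP6, with exon bases shared with *CG12535* and *lncRNA:CR44999*) was 259, 237 and 233 CPM in gfp 1, gfp 2 and gfp 3. In Myc 1, Myc 2 and Myc 3 it was 774, 538 and 602 CPM. The groups did not overlap, and the log2 fold change was 1.39 (SE 0.14, adjusted p = 7.99e-05). Reads of the transgene and of the native gene cannot be separated in these counts. The kinase gene *hop*, which is misexpressed in the remaining genotype, was at 62.6, 79.97 and 72.4 CPM in gfp and 58.6, 73.6 and 64.5 CPM in Myc (-0.13, adjusted p = 0.75). *betaTub56D*, a tubulin gene often used as a qPCR reference, was at 1547 ± 131 CPM (SD, n = 3) in gfp and 1534 ± 179 CPM in Myc (-0.01, adjusted p = 0.98). Of 15 genes of the Myc network, which holds Max, Mnt and other partners and regulators, *dm*, the gene driven by the transgene, was the 1 that passed by edgeR or limma-voom. Over all genes tested 2.35% were higher by edgeR. DESeq2 called 2 of the 15 higher, and 4 were higher at an unadjusted p under 0.05 (7.90% of all genes). The partners *pont* (0.75, adjusted p = 0.089) and *rept* (0.56, adjusted p = 0.12) did not pass by edgeR.

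The identity of the sorted cells was checked on markers. *ci*, which marks the anterior compartment where the *dpp* stripe lies, was at 1021, 1012 and 1175 CPM in gfp and 1033, 1098 and 1079 CPM in Myc. The Dpp targets *bi*, *Dad* and *salm* were at 569 ± 19.4, 409 ± 23.4 and 334 ± 48.9 CPM (SD, n = 3) in gfp and at 485 ± 60.9, 372 ± 48.1 and 287 ± 11.8 CPM in Myc. Of 9 genes of the dpp domain and anterior compartment, 0 passed the test, with 1 lower at an unadjusted p under 0.05, 1 lower by DESeq2 and 0 by limma-voom. The largest change of the 9 was in *kn* (log2 fold change -0.58, edgeR adjusted p = 0.072). The 3 posterior genes were present in both groups and summed to 122, 133 and 122 CPM in gfp and 78.8, 82.7 and 72.04 CPM in Myc, without overlap. Of these, the homeobox gene *inv* was at 79.8, 79.1 and 71.9 CPM in gfp and 41.1, 44.9 and 41.7 CPM in Myc, a log2 fold change of -0.85 (SE 0.16, adjusted p = 0.007), while *en* (-0.59, adjusted p = 0.24) and *hh* (-0.34, adjusted p = 0.57) did not pass. Lists of notum, hinge and pouch, adult muscle precursor, tracheal, hemocyte, neuronal, fat body and sex-specific genes held 7 to 12 genes tested each, of which 0 passed in either direction by edgeR, DESeq2 or limma-voom. At an unadjusted p under 0.05, which 7.90% of all genes passed as higher and 6.17% as lower, the largest of these counts was 4 lower among 12 hinge and pouch genes. The muscle precursor, hemocyte and sex-specific lists each had 3 lower among 8 genes tested, a larger share. The summed level of the 8 muscle precursor genes was 349, 407 and 319 CPM in gfp and 330.4, 296 and 296 CPM in Myc, and that of the 9 hemocyte genes 194, 241 and 238 and 161, 186 and 226 CPM, with overlap in both lists. Without Myc 1 the median log2 fold change went from -0.30 to -0.58 for the muscle precursor genes and from -0.17 to -0.49 for the hemocyte genes. The part of these markers in the results below was not tested.

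Against control cells, 225 genes rose in Myc supercompetitors and 51 fell by 1.5-fold or more with an adjusted p under 0.05, which is 1.77% and 0.400% of the genes tested. At the adjusted p alone, which is used below for single genes and gene lists, 300 genes (2.35%) were higher and 64 (0.502%) lower. Without Myc 1, 304 genes were higher and 107 lower at the adjusted p alone, of 13007 tested. The median fold change was 1.74 among the genes that rose and 1.87 among those that fell, and 55 and 21 of them changed at least 2-fold. The genes that rose were expressed at a median of 65.3 CPM in gfp, against 13.6 CPM over all genes tested. The 3 Myc libraries lay outside the range of the 3 gfp libraries for all 225 and all 51, and also for 10.8% (above) and 10.4% (below) of all genes tested. Genes with the smallest p among those that rose were *dm*, *Sam-S*, *Pdp1*, *CG30428*, *sesB*, *Mpcp*, *CG6767*, *CR44506*, *mod*, *CG11697*, *Ef1alpha48D* and *CG8545*. Exon bases shared with another gene affect 83 of the 225 and 10 of the 51, and counts of such genes are uncertain because the strand setting of the counting is not given.

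**Figure D1:**
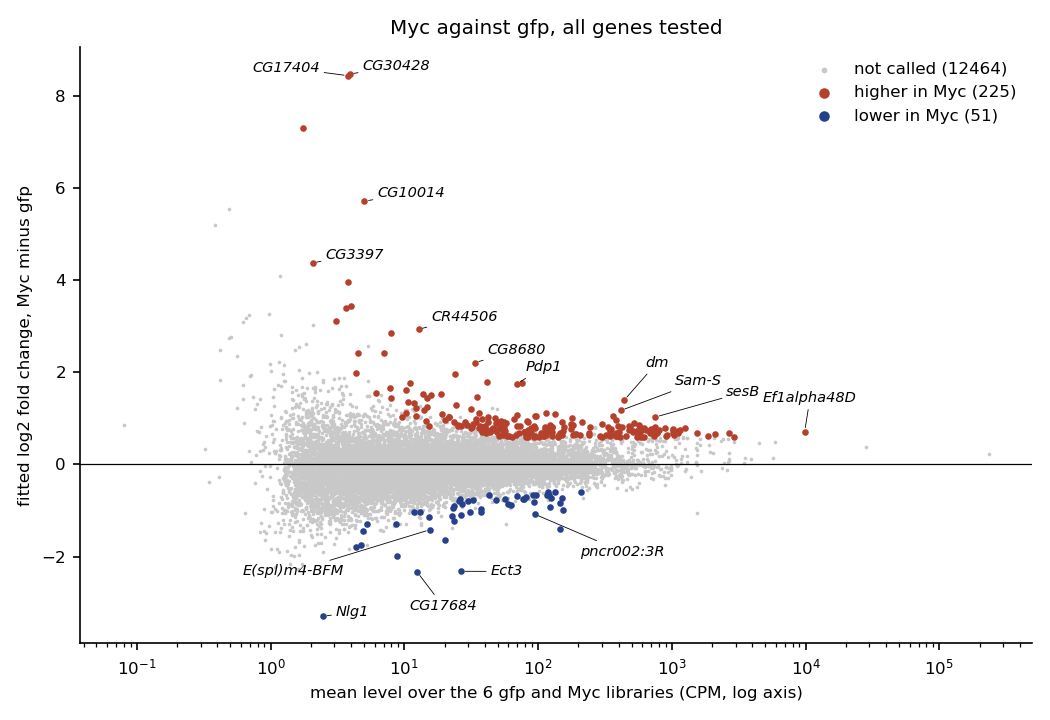
Fitted log2 fold change (Myc minus gfp) against the mean level over the 6 gfp and Myc libraries (CPM, log axis), 1 point a gene, with the 225 genes that rose in red and the 51 that fell in blue. 1 gene tested has no count in these 6 libraries and is not drawn. Most genes that rose lie above 10 CPM, and the 8 with the largest fold changes lie below it.

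The number of calls changed when single libraries were left out. Such a fit also holds fewer libraries, and the part of this in the changes was not tested. Without gfp 1 there were 115 genes higher and 16 lower, without gfp 2 there were 112 and 11, and without gfp 3 there were 173 and 19. Without Myc 1 there were 249 and 88, of which 192 and 30 were also called with all libraries. Without Myc 2 the counts were 186 and 41, without Myc 3 they were 200 and 25, and without 1 hop library they were 253 to 303 and 36 to 52. With gfp 1 and Myc 1 both left out, 146 genes were higher and 36 lower, of which 128 and 16 were also called with all libraries. In all, 86 genes were called higher and 9 lower whichever of the 9 libraries was left out. *dm*, *Sam-S*, *Nop60B*, *Pdp1*, *CG8680*, *Mpcp*, *sesB*, *mnd* and *Ect3* kept an adjusted p under 0.05 in all 9 of these fits.

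**Figure D2:**
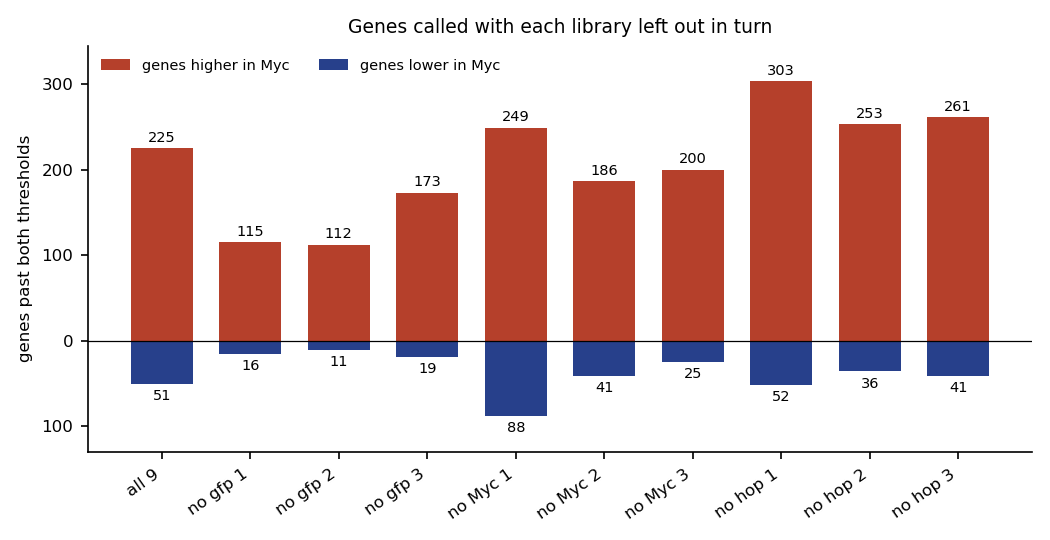
Number of genes higher (red, above the line) and lower (blue, below the line) in Myc than in gfp past both thresholds (1.5-fold, adjusted p of 0.05), with all 9 libraries and with each library left out. The counts fall most without gfp 1 (115 and 16) or gfp 2 (112 and 11).

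Some genes of ribosome assembly in the nucleolus rose. *Nop60B* encodes the pseudouridine synthase of the box H/ACA snoRNPs. Its level was 137, 152 and 154 CPM in gfp and 306, 267 and 266 CPM in Myc (log2 fold change 0.92, SE 0.12, adjusted p = 9.94e-04), and its exons hold those of several snoRNAs. *mod* (*modulo*), a nucleolar RNA-binding protein, was at 389.97, 406 and 416 CPM in gfp and 804, 724 and 678 CPM in Myc (log2 fold change 0.86, SE 0.11, adjusted p = 6.13e-04). *CG8545* rose from 72.5 ± 10.98 to 158 ± 18.7 CPM (SD, n = 3; 1.13, adjusted p = 9.94e-04). In these 3 genes every Myc library was above every gfp library, with Myc 1 the highest. Of 30 nucleolar pre-rRNA processing genes, 10 were higher and 0 lower, with a median log2 fold change of 0.54 against -0.04 over all genes tested (-0.02 without Myc 1). Without gfp 1 this was 3 and without gfp 2 it was 2, while 11 were higher without Myc 1. *nop5*, the core protein of box C/D snoRNPs, was at 151, 142 and 132 CPM in gfp and 215, 201 and 203 CPM in Myc (log2 fold change 0.55, SE 0.12, adjusted p = 0.016). Its call was lost without gfp 1, gfp 2 or gfp 3 (adjusted p = 0.053 to 0.1).

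*CG1542* (0.95, adjusted p = 0.0057), the fly counterpart of yeast Ebp2, and *CG4364* (0.68, adjusted p = 0.01), the fly pescadillo gene, also rose. The call of *CG1542* was lost without gfp 2 (adjusted p = 0.051) and that of *CG4364* without gfp 1 or gfp 2 (adjusted p = 0.06 to 0.086). Among 22 genes of subunit assembly and export, 5 were higher and 0 lower (median 0.46), with 3 without gfp 1, 2 without gfp 2, 3 without gfp 3 and 8 without hop 1. Besides *mod* these included *CG8801* (*Non1*), a nucleolar GTPase, at 268, 271 and 289 CPM in gfp and 455, 457 and 377 CPM in Myc (log2 fold change 0.64, SE 0.11, adjusted p = 0.005). The pescadillo gene is in both lists.

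Of 12 genes of RNA polymerase I, 2 were higher and 0 lower (median 0.35), with 0 without gfp 1, 0 without gfp 2, 1 without gfp 3, 1 without Myc 1 and 1 without Myc 2. *Tif-IA*, the initiation factor that brings the polymerase to rDNA, was at 89.4, 91.1 and 106 CPM in gfp and 137, 162 and 131 CPM in Myc (log2 fold change 0.58, SE 0.13, adjusted p = 0.024), and its call was lost without gfp 1, gfp 2 or Myc 2 (adjusted p = 0.095 to 0.15). *RpI1*, the largest subunit, was at 97.7, 99.5 and 109 and 147, 134 and 149 CPM (log2 fold change 0.49, SE 0.12, adjusted p = 0.037), and its call was lost without gfp 1, gfp 2, gfp 3, Myc 1 or Myc 3 (adjusted p = 0.051 to 0.19). In both genes every Myc library was above every gfp library. Of 12 genes of RNA polymerase III, 0 passed in either direction by edgeR, DESeq2 or limma-voom, with 4 higher at an unadjusted p under 0.05 (7.90% of all genes) and a median of 0.47.

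Most genes of cytosolic ribosomal proteins rose, each by a small amount. Of 92 listed, 88 were tested, and all 88 had a positive log2 fold change, from 0.33 to 1.02 with a median of 0.63. Of these, 72 passed the test and 49 of them also passed the 1.5-fold threshold, where they make up 49 of the 225 genes that rose. Summed over the 92 genes, they took 45983, 44325 and 48702 CPM in gfp and 70867, 74900.3 and 68037 CPM in Myc, a ratio of means of 1.54 without overlap. Myc 1 lay between the other Myc libraries. *RpL9* was at 538, 493 and 516 CPM in gfp and 879, 946 and 817 CPM in Myc (log2 fold change 0.77, SE 0.11, adjusted p = 0.0011). *RpS5a* (0.71, adjusted p = 0.0015), *RpL13* (0.68, adjusted p = 0.0018) and *RpS3* (0.68, adjusted p = 0.0018) are the other members with the smallest p. The number of calls changed with the control libraries, since 32 passed without gfp 1 and 25 without gfp 2, against 69 without Myc 1 and 38 without gfp 1 and Myc 1.

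Some translation factors rose as well. *Ef1alpha48D*, the elongation factor that brings charged tRNA to the ribosome and among the most abundant mRNAs here, was at 7167, 7643 and 7576 CPM in gfp and 12298, 12670.5 and 11725 CPM in Myc (log2 fold change 0.71, SE 0.09, adjusted p = 8.59e-04). The subunits of its exchange factor rose by similar amounts, *Ef1gamma* from 757 ± 40.5 to 1276 ± 78.1 CPM (0.75, adjusted p = 9.94e-04) and *Ef1beta* from 529.9 ± 13.8 to 909 ± 86.3 CPM (0.78, adjusted p = 0.0018). *CG7414* (*eIF2A*) was at 168, 161 and 205 CPM in gfp and 326, 325 and 291 CPM in Myc (log2 fold change 0.82, SE 0.12, adjusted p = 0.0021). Of 50 initiation, elongation and release factors tested, 16 were higher and 0 lower (median 0.39), with 8 without gfp 2 and 10 without gfp 3.

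Of 35 tRNA synthetases, which charge tRNAs with amino acids, 5 were higher and 0 lower (median 0.21). *Aats-tyr* was at 33.7, 33.1 and 37.8 CPM in gfp and 69.3, 63.5 and 64.4 CPM in Myc (log2 fold change 0.91, SE 0.15, adjusted p = 0.0038). The calls of *CG33123* (leucyl, 0.62, adjusted p = 0.0078), *Aats-ile* (0.54, adjusted p = 0.024) and *Aats-his* (0.79, adjusted p = 0.031) depended on the libraries used. They were lost without gfp 1 or gfp 2 (adjusted p = 0.051 to 0.066), without gfp 1, gfp 2, gfp 3, Myc 1 or Myc 2 (adjusted p = 0.0502 to 0.13) and without gfp 1, gfp 2, gfp 3 or Myc 2 (adjusted p = 0.096 to 0.17), respectively. Counts over the list were 1 without gfp 1, 1 without gfp 2, 2 without gfp 3, 3 without Myc 1 and 2 without Myc 2.

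**Figure D3:**
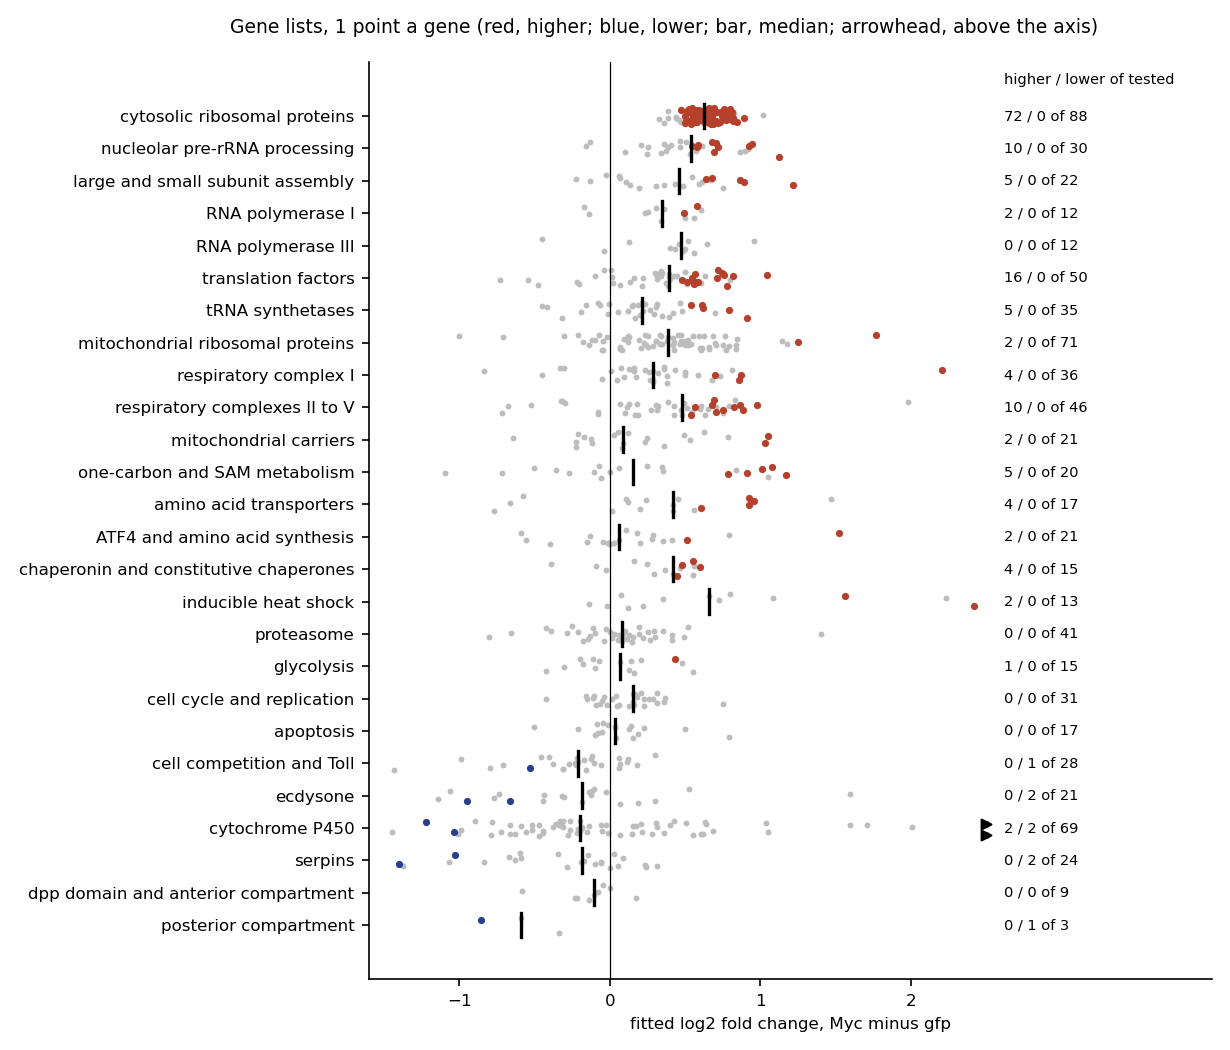
Fitted log2 fold change (Myc minus gfp) of every tested member of 26 gene lists, with genes past an adjusted p of 0.05 in red (higher) or blue (lower), other genes in gray and the median as a bar. The counts at the right give genes higher and lower of those tested, and arrowheads mark the P450 genes *Cyp313a3* and *Cyp313a5*, which lie beyond the axis. The 88 ribosomal protein genes form a narrow cloud to the right of 0, while the proteasome and cell cycle genes straddle 0.

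Among mitochondrial genes, 2 carriers of the inner membrane stood out by their p. *Mpcp* (*Mpcp2*), which imports phosphate, was at 235, 228 and 249 CPM in gfp and 497, 433 and 545 CPM in Myc (log2 fold change 1.05, SE 0.12, adjusted p = 2.11e-04). *sesB*, the ADP/ATP carrier, was at 488, 489 and 509.6 CPM in gfp and 1056, 978 and 999 CPM in Myc (log2 fold change 1.03, SE 0.11, adjusted p = 2.11e-04). Its exons overlap those of *Ant2*, so the reads of both cannot be fully separated. In both genes every Myc library was far above every gfp library. These were the 2 of 21 carrier genes that passed, and the median over the 21 was 0.09, or 0.23 without Myc 1.

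A few respiratory chain genes rose. *CG8680* (*ND-13A*), an accessory subunit of complex I, was at 10.1, 10.3 and 15.5 CPM in gfp and 80.8, 33.95 and 51.7 CPM in Myc (log2 fold change 2.21, SE 0.33, adjusted p = 0.0029). Myc 1 was the highest and Myc 2 the lowest of the Myc libraries (1.86, adjusted p = 6.62e-04, without Myc 1). *CG8680* (chromosome arm 2L, 5099177 to 5100288 of BDGP6) shares exon bases with *CG4230*, which was at 36.8, 35.4 and 31.2 CPM in gfp and 177, 75.1 and 101 CPM in Myc (1.78, adjusted p = 0.0022), so the increase of either cannot be assigned to it alone. Of 36 complex I genes, 4 were higher and 0 lower (median 0.29), with 1 without gfp 1, 2 without gfp 2, 1 without gfp 3, 2 without Myc 2 and 2 without Myc 3. The other 3 were *mtacp1* (0.70, adjusted p = 0.017), *CG5703* (0.86, adjusted p = 0.042) and *Pdsw* (0.87, adjusted p = 0.049), all of which lost their call without gfp 1.

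Of 46 genes of complexes II to V, 10 were higher and 0 lower (median 0.48), with 4 without gfp 1, 3 without gfp 2, 6 without gfp 3, 6 without Myc 2 and 6 without Myc 3. *CG1746* (*ATPsynC*), which forms the rotor ring of ATP synthase, was at 799, 849 and 951 CPM in gfp and 1421, 1494 and 1452 CPM in Myc (log2 fold change 0.75, SE 0.12, adjusted p = 0.0029). *l(1)G0230* (*ATPsyndelta*) rose by 0.70, adjusted p = 0.0038, and *RFeSP*, the iron-sulfur protein of complex III, by 0.98, adjusted p = 0.0056. *ATPsyn-beta*, the catalytic subunit, was at 1042 ± 22.2 and 1543 ± 166 CPM (0.57, adjusted p = 0.0069), and its call was lost without gfp 1 or gfp 2 (adjusted p = 0.0502 to 0.062). Of 71 mitochondrial ribosomal proteins, 2 were higher and 0 lower, a share near the 2.35% of all genes tested that were higher. The count was 1 without gfp 1 and 1 without gfp 2. A positive log2 fold change was seen for 58 of the 71 (median 0.39) and for 5853 of all 12741 genes tested. *mRpL54* was at 3.48, 6.18 and 5.38 CPM in gfp and 13.9, 18.98 and 18.6 CPM in Myc (log2 fold change 1.77, SE 0.29, adjusted p = 0.0034), and *mRpL2* rose by 1.25, adjusted p = 0.011 and lost its call without gfp 1 or gfp 2 (adjusted p = 0.066 to 0.078).

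*Sam-S* encodes the enzyme that makes S-adenosylmethionine, the methyl donor of the cell. Its level (chromosome arm 2L, 106903 to 114432 of BDGP6) was 248, 258 and 262 CPM in gfp and 604, 552 and 576 CPM in Myc (log2 fold change 1.17, SE 0.11, adjusted p = 7.99e-05). *Ahcy13*, which clears the product of methylation, was at 118 ± 20.4 CPM in gfp and 238 ± 12.3 CPM in Myc (log2 fold change 1.01, SE 0.15, adjusted p = 0.0018). *Nmdmc*, a mitochondrial folate enzyme, rose from 44.5 ± 8.18 to 93.96 ± 12.03 CPM (1.08, adjusted p = 0.0021), and *Cbs*, which diverts homocysteine to cysteine, from 69.7 ± 8.92 to 119.95 ± 7.15 CPM (0.78, adjusted p = 0.0047). Of 20 genes of one-carbon and S-adenosylmethionine metabolism, 5 were higher and 0 lower, and 4 to 6 were higher whichever library was left out. The median of the list was 0.15. *CG6767* (*Prps*), which makes the ribose phosphate donor of nucleotide synthesis, was at 247, 239 and 289 CPM in gfp and 538, 466 and 517 CPM in Myc (log2 fold change 0.97, SE 0.11, adjusted p = 3.08e-04).

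Of 17 amino acid transporters, 4 were higher and 0 lower (median 0.42), with 2 without gfp 1, 2 without gfp 2, 2 without gfp 3 and 2 without Myc 2. *path* was at 106, 105 and 103 CPM in gfp and 234, 194 and 167 CPM in Myc (log2 fold change 0.92, SE 0.13, adjusted p = 0.0017). *mnd* (*minidiscs*) was at 51.4, 62.3 and 59.9 CPM in gfp and 124, 106 and 99.7 CPM in Myc (log2 fold change 0.93, SE 0.15, adjusted p = 0.003). In both, Myc 1 was the highest and Myc 3 the lowest of the Myc libraries. *CG5535* (0.96, adjusted p = 0.02) lost its call without gfp 1, gfp 2, gfp 3 or Myc 2 (adjusted p = 0.055 to 0.13) and *JhI-21* (0.60, adjusted p = 0.033) without gfp 1, gfp 2, gfp 3, Myc 1 or Myc 2 (adjusted p = 0.074 to 0.19). Of 21 genes of the ATF4 response and amino acid synthesis, 2 were higher. *asparagine-synthetase* was at 4.94, 9.78 and 6.76 CPM in gfp and 29.8, 17.1 and 14.99 CPM in Myc (log2 fold change 1.52, SE 0.32, adjusted p = 0.016), with the call lost without gfp 1 or gfp 3 (adjusted p = 0.079 to 0.11). *crc*, the fly ATF4 gene, rose by 0.51, adjusted p = 0.039, with the call lost without gfp 1, gfp 2, gfp 3 or Myc 2 (adjusted p = 0.11 to 0.2).

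*Pdp1*, a PAR-domain leucine zipper factor known from the circadian clock and from larval growth, had a larger fold change than *dm* itself. It was at 31.1, 32.1 and 32.6 CPM in gfp and 133, 82.7 and 107 CPM in Myc (log2 fold change 1.75, SE 0.18, adjusted p = 7.99e-05). Of 11 PAR-domain and clock genes it was the 1 that passed. *Mer*, a growth suppressor upstream of Hippo, was at 49.02, 55.1 and 46.2 CPM in gfp and 98.6, 61.6 and 108 CPM in Myc (log2 fold change 0.84, SE 0.18, adjusted p = 0.018), with Myc 2 close to gfp 2, and its call was lost without gfp 1, gfp 2, gfp 3 or Myc 3 (adjusted p = 0.068 to 0.11). *mld*, a zinc-finger gene, rose from 269.9 ± 28.2 to 415 ± 62.6 CPM (0.62, adjusted p = 0.018) and lost its call without gfp 2 or gfp 3 (adjusted p = 0.12 to 0.13). *chinmo*, a gene known to respond to JAK/STAT signaling, was at 98.8, 116 and 114 CPM in gfp and 225, 119 and 164 CPM in Myc (log2 fold change 0.63, SE 0.20, adjusted p = 0.16), and the hop libraries had a mean of 615 CPM. It did not pass the test (0.39, adjusted p = 0.23, without Myc 1), and Myc 1 was the highest of the Myc libraries. DESeq2 gave it an adjusted p of 0.049.

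**Figure D4:**
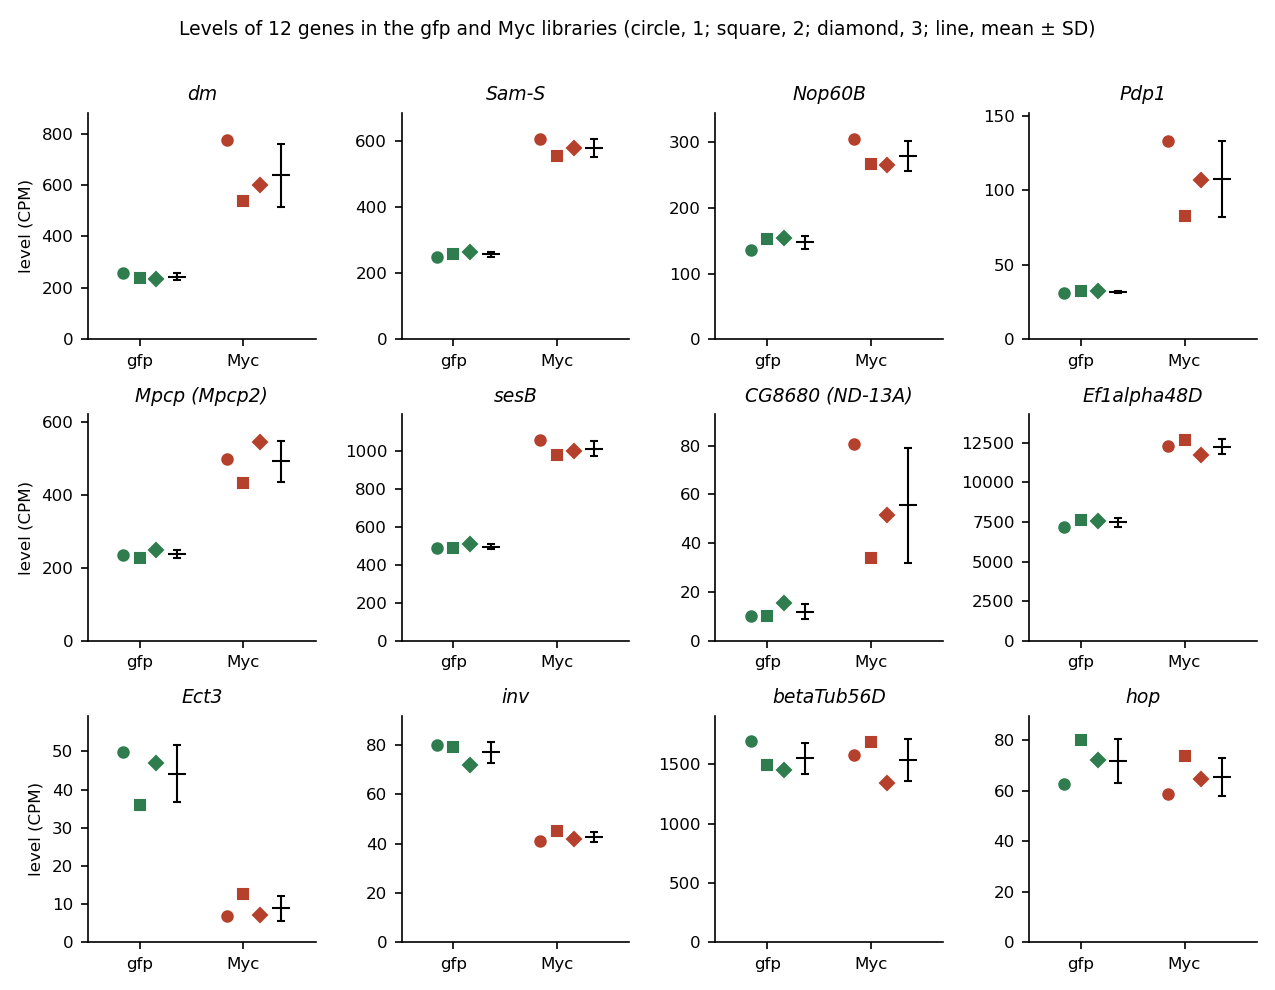
Level in CPM of 12 genes in each gfp (green) and Myc (red) library, with library 1 as a circle, 2 as a square and 3 as a diamond, and the mean ± SD of the 3 libraries as a line with caps. All axes start at 0. Groups are apart for *dm*, *Sam-S*, *Nop60B*, *Pdp1*, *Mpcp*, *sesB*, *CG8680*, *Ef1alpha48D*, *Ect3* and *inv*, and overlap for *betaTub56D* and *hop*.

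Chaperones changed unevenly. *Hsc70-4*, the constitutive Hsp70, was at 2007, 2390.3 and 2554 CPM in gfp and 3640.5, 3634 and 3246 CPM in Myc (log2 fold change 0.60, SE 0.12, adjusted p = 0.0095), with the call lost without gfp 1 or gfp 2 (adjusted p = 0.06 to 0.087). Of 15 chaperonin and constitutive chaperone genes 4 were higher and 0 lower, the other 3 being the chaperonin subunits *CG8258*, *CG7033* and *Tcp-1zeta* at 0.55, adjusted p = 0.015, 0.48, adjusted p = 0.031 and 0.45, adjusted p = 0.035. *Tcp-1zeta* lost its call without gfp 1, gfp 2, gfp 3, Myc 1, Myc 2 or Myc 3 (adjusted p = 0.051 to 0.2). The count was 0 without gfp 1, 0 without gfp 2, 2 without gfp 3, 2 without Myc 2 and 7 without hop 1. The heat-inducible *Hsp70Bc* was at 2.19, 2.23 and 2.15 CPM in gfp and 19.7, 7.59 and 8.15 CPM in Myc (log2 fold change 2.42, SE 0.40, adjusted p = 0.0034), and *Hsp70Aa* at 3.11, 3.78 and 2.46 and 13.04, 6.33 and 8.15 CPM (log2 fold change 1.56, SE 0.37, adjusted p = 0.029). The call of *Hsp70Aa* was lost without gfp 1, gfp 2, gfp 3, Myc 1 or Myc 3 (adjusted p = 0.057 to 0.13), and near-identical copies of these genes share reads. For *Hsp70Bc* the log2 fold change was 1.86, adjusted p = 0.0047, without Myc 1. In both genes Myc 1 was the highest, and summed over 13 inducible heat shock genes the Myc libraries held 3469.7, 2675 and 1662 CPM against 2051, 2519 and 2175 CPM in gfp. The median of that list was 0.66, and 0.20 without Myc 1.

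**Figure D5:**
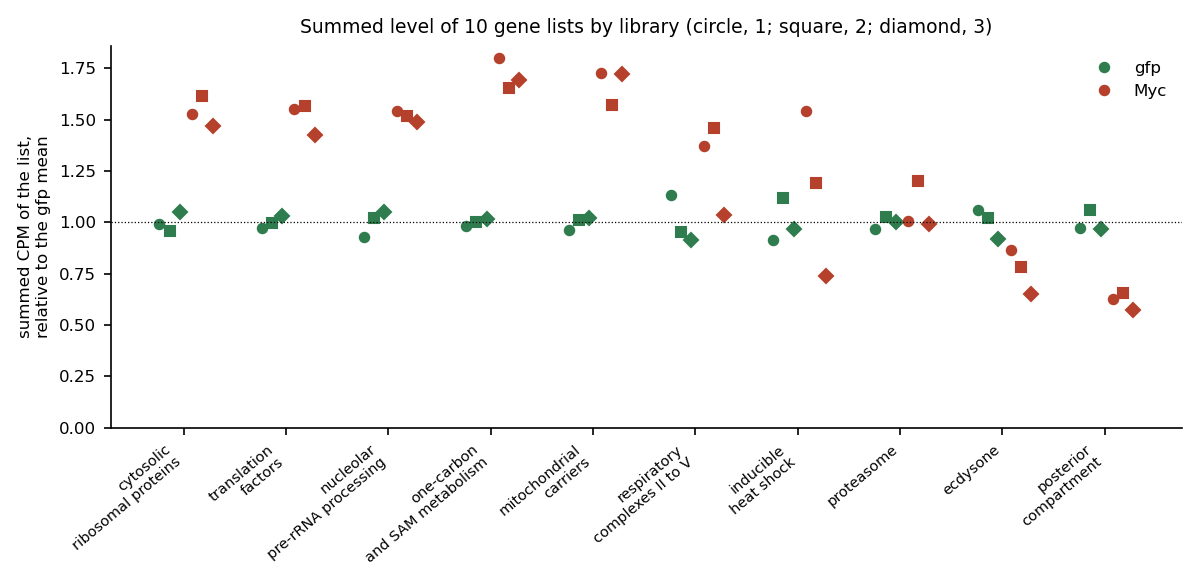
Summed CPM of 10 gene lists in each gfp (green) and Myc (red) library, divided by the mean of the gfp libraries (dotted line), with library 1 as a circle, 2 as a square and 3 as a diamond. Ribosomal proteins, translation factors, nucleolar, one-carbon and carrier genes are above gfp in all 3 Myc libraries, the posterior and ecdysone genes are below it in all 3, and the heat shock genes lie on both sides with Myc 1 highest. The list of complexes II to V includes subunits encoded by the mitochondrial genome.

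Several processes tied to growth and competition gave few or no calls. Of 41 proteasome genes, 0 passed by edgeR, DESeq2 or limma-voom, with 3 higher at an unadjusted p under 0.05, where all genes tested gave 7.90% higher and 6.17% lower. Of 31 cell cycle and replication genes, 0 passed by edgeR or limma-voom and 1 was higher by DESeq2, with 5 higher and 1 lower at an unadjusted p under 0.05, and without Myc 1 edgeR called 1 higher. The median was 0.08 for the proteasome list, 0.12 without Myc 1, and 0.16 for the cell cycle list. Of 17 apoptosis genes, 0 passed by edgeR, DESeq2 or limma-voom, with 1 lower at an unadjusted p under 0.05. Of 28 genes of cell competition and the Toll module, 0 were higher by edgeR, DESeq2 or limma-voom. At an unadjusted p under 0.05, 0 were higher and 4 lower, and the median of the list was -0.21, or -0.13 without Myc 1. The receptor gene *Tl* was lower, at 78.5, 89.9 and 81.1 CPM in gfp and 63.4, 56.9 and 52.2 CPM in Myc (log2 fold change -0.53, SE 0.13, adjusted p = 0.039), and its call was lost without gfp 1, gfp 2, gfp 3, Myc 2, Myc 3, hop 2 or hop 3 (adjusted p = 0.06 to 0.22). Of 15 glycolysis genes 1 was higher, *Eno* (0.44, adjusted p = 0.048), and its call was lost without gfp 1, gfp 2, gfp 3, Myc 1, Myc 2, Myc 3 or hop 2 (adjusted p = 0.051 to 0.25). Of 17 genes of fatty acid synthesis 2 were higher. *Desat1*, a fatty acid desaturase, was at 125, 118 and 108 CPM in gfp and 195, 186 and 196 CPM in Myc (log2 fold change 0.72, SE 0.12, adjusted p = 0.0038), and *CG3523* (*FASN1*) rose by 0.67, adjusted p = 0.015 and lost its call without gfp 1, gfp 2 or gfp 3 (adjusted p = 0.056 to 0.11). Of 15 JAK/STAT genes, 0 passed by edgeR or limma-voom and 1 was higher by DESeq2, with 2 higher and 4 lower at an unadjusted p under 0.05.

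Fewer genes fell. *Ect3* (chromosome arm 3R, 11999278 to 12003516 of BDGP6) had the smallest p among them, at 49.9, 35.9 and 46.9 CPM in gfp and 6.97, 12.7 and 7.17 CPM in Myc (log2 fold change -2.32, SE 0.24, adjusted p = 1.02e-04). It was at 43.99 CPM (mean, n = 3) in hop. The long non-coding RNA *pncr002:3R* was at 115, 135 and 134 CPM in gfp and 64.1, 61.4 and 56.2 CPM in Myc (log2 fold change -1.08, SE 0.13, adjusted p = 4.96e-04), and *CG17684* at 24.3, 19.2 and 19.05 and 4.47, 4.85 and 3.10 CPM (log2 fold change -2.34, SE 0.30, adjusted p = 7.25e-04). In these 3 genes every gfp library was well above every Myc library. *Ugt37b1*, a UDP-glycosyltransferase, fell from 14.2 ± 1.06 to 3.53 ± 1.46 CPM (-1.98, adjusted p = 0.0053). *Nlg1*, a neuroligin, had the largest fall, from 3.11, 6.18 and 4.15 CPM in gfp to 0.179, 1.05 and 0.163 CPM in Myc (log2 fold change -3.30, SE 0.72, adjusted p = 0.018), and its call was lost without gfp 2, gfp 3 or Myc 3 (adjusted p = 0.058 to 0.12). After these, *CG1387* (-1.79, adjusted p = 0.032), *CG13053* (-1.75, adjusted p = 0.025), *CG1894* (-1.64, adjusted p = 0.012) and *CG12481* (-1.44, adjusted p = 0.045) completed the 8 largest falls. The call of *CG1387* was lost without gfp 1, gfp 2, gfp 3, Myc 1, Myc 2 or Myc 3 (adjusted p = 0.056 to 0.14) and that of *CG13053* without gfp 1, gfp 2, gfp 3, Myc 1 or Myc 3 (adjusted p = 0.053 to 0.12). *CG1894* lost its call without gfp 1 or gfp 2 (adjusted p = 0.056 to 0.076) and *CG12481* without gfp 1, gfp 2, gfp 3, Myc 2, Myc 3, hop 1 or hop 3 (adjusted p = 0.0502 to 0.2).

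Further genes with the smallest p among those that fell have varied known roles. *laccase2* (*straw*), which tans cuticle, was at 213, 152 and 194 CPM in gfp and 117, 100.2 and 97.1 CPM in Myc (log2 fold change -0.83, SE 0.13, adjusted p = 0.0029). *E(spl)m4-BFM*, a Bearded-family target of Notch, was at 26.7, 21.1 and 20.4 and 6.79, 8.22 and 10.4 CPM (log2 fold change -1.42, SE 0.26, adjusted p = 0.0071). The planar polarity gene *pk* fell from 99.1 ± 8.25 to 58.5 ± 9.59 CPM (-0.76, adjusted p = 0.0085), with the call lost without gfp 1 or gfp 2 (adjusted p = 0.056 to 0.061). *Np*, a transmembrane serine protease, fell by 0.59 (adjusted p = 0.0082), with the call lost without gfp 2 or gfp 3 (adjusted p = 0.055 to 0.058), and *dor*, which acts in traffic to the lysosome, by 0.67 (adjusted p = 0.0081), with the call lost without gfp 1 or gfp 2 (adjusted p = 0.054 to 0.066). *CG11509*, listed beside *br* and now annotated within it, was at 97.3 ± 5.61 CPM in gfp and 57.7 ± 5.90 CPM in Myc (log2 fold change -0.75, SE 0.14, adjusted p = 0.0056). It was at 59.5 ± 3.74 CPM in hop, and the entry *br* itself did not pass (-0.12, adjusted p = 0.70). For 24 serpins, which inhibit serine proteases, 2 fell and 0 rose, where 0.502% of all genes tested were lower. DESeq2 and limma-voom each called 3 lower, and 6 were lower at an unadjusted p under 0.05 (6.17% of all genes). The 2 were *Spn43Aa*, at 253, 208 and 174 CPM in gfp and 87.2, 93.6 and 60.1 CPM in Myc (log2 fold change -1.40, SE 0.24, adjusted p = 0.0087), and its neighbor *Spn43Ab* (-1.03, adjusted p = 0.035), whose call was lost without gfp 1, gfp 2, Myc 1, Myc 2, Myc 3 or hop 2 (adjusted p = 0.051 to 0.22).

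Of 21 genes of the ecdysone response, 2 were lower and 0 higher, *Eip78C* (-0.66, adjusted p = 0.044) and *ImpE3* (-0.95, adjusted p = 0.044). The call of *Eip78C* was lost without gfp 1, gfp 2, gfp 3, Myc 1, Myc 2, Myc 3, hop 2 or hop 3 (adjusted p = 0.057 to 0.18) and that of *ImpE3* without gfp 1, gfp 2, gfp 3, Myc 1, Myc 3, hop 1, hop 2 or hop 3 (adjusted p = 0.0502 to 0.23), so without Myc 1 the count was 0. The summed level of the list was 7977, 7698 and 6911 CPM in gfp and 6516, 5905 and 4891 CPM in Myc, without overlap. Of 69 cytochrome P450 genes 2 rose and 2 fell, where 2.35% of all genes tested were higher and 0.502% lower. *Cyp9b2* was at 33.8, 34.3 and 31.3 CPM in gfp and 13.4, 15.2 and 14.2 CPM in Myc (log2 fold change -1.22, SE 0.24, adjusted p = 0.011), with the call lost without gfp 1 or gfp 2 (adjusted p = 0.054 to 0.068). *Cyp6a20* fell from 15.9 ± 1.84 to 7.71 ± 2.17 CPM (-1.03, adjusted p = 0.048), with the call lost without gfp 1, gfp 2, gfp 3, Myc 2, Myc 3, hop 1, hop 2 or hop 3 (adjusted p = 0.053 to 0.2). Of 34 glutathione S-transferases, 0 passed by edgeR or limma-voom and 1 was higher by DESeq2, with 3 higher and 4 lower at an unadjusted p under 0.05, and without Myc 1 edgeR called 1 higher.

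The largest increases were in genes near 0 in the control. *CG30428* had no counts in the gfp libraries and was at 7.50, 7.80 and 8.15 CPM in Myc, at least 46.5-fold higher when 3 counts over the gfp group are taken as the floor. It shares exon bases with an *INE-1* transposon copy and was at a mean of 10.6 CPM in hop. *CG17404* and *CG3942* also had no counts in gfp and were at least 45.7-fold and 20.5-fold higher, at 11.4, 5.06 and 6.36 CPM and 5.54, 2.95 and 1.96 CPM in Myc. The call of *CG3942* was lost without gfp 2 (adjusted p = 0.056). *CG10014*, whose exons overlap those of *CG17404*, had 0, 1 and 2 counts in gfp and 87, 35 and 42 in Myc, a ratio of 59.1 (95% Clopper-Pearson interval 19.9 to 289). *CG3397* had 2, 1 and 0 counts in gfp and 15, 18 and 33 in Myc, a ratio of 23.8 (7.79 to 118), and it had 20, 32 and 16 counts in hop. These bounds and intervals cover counting error only, since the reads carry no molecular identifiers. *CR44506* was at 3.48, 3.09 and 2.30 CPM in gfp and 29.7, 20.9 and 17.3 CPM in Myc (log2 fold change 2.93, SE 0.35, adjusted p = 4.31e-04), and *CG11697* at 2.38, 2.23 and 1.23 and 14.1, 10.97 and 17.1 CPM (log2 fold change 2.86, SE 0.37, adjusted p = 7.37e-04).

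Several of these genes lie close together on chromosome arm 3R. The window of 250 kb from 12000001 to 12250000 (BDGP6) holds 21 genes tested, of which 5 (23.8%, against 2.17% of all genes) changed past both thresholds, *CG4860*, *CG10014*, *CG17404*, *Cyp313a5* and *Cyp313a3*. Other windows of this size with 5 such genes lie on chromosome 2. On arm 2L they hold 5 of 26 genes (from 5000001, with *CG8680* and *CG4230*) and 5 of 47 (from 9750001, with *RpS2* and *RpL13*), and on arm 2R 5 of 40 (from 7000001, with *Cyp9b2*, *Spn43Aa*, *Spn43Ab* and *pk*). These windows are given because they hold the most called genes, so their shares are no test. In the window on 3R, *CG10014*, *CG17404*, *Cyp313a5* and *Cyp313a3* were at or near 0 in gfp and low in hop. They passed the filter on low counts through the Myc libraries, which raises the share there. *Cyp313a3* was at 0.183, 0 and 1.08 CPM in gfp and 9.47, 8.22 and 3.91 CPM in Myc (log2 fold change 3.96, SE 0.76, adjusted p = 0.0082), with the call lost without gfp 1 (adjusted p = 0.054), and *Cyp313a5* at 0.915, 0 and 0.922 and 6.97, 8.43 and 4.73 CPM (log2 fold change 3.40, SE 0.65, adjusted p = 0.0085). *CG3397* (11983098 to 11984541) and *Ect3* lie at the left edge of the window on 3R and *CG3942* (12254187 to 12256592) at its right, so genes that rose and a gene that fell lie side by side. *Obp56b*, at 0.183, 0.172 and 1.54 CPM in gfp and 6.97, 8.22 and 7.01 CPM in Myc (3.45, adjusted p = 0.0087) with the call lost without gfp 1 or gfp 2 (adjusted p = 0.054 to 0.066), lies beside *CR44506* on chromosome arm 2R. Arm 3R held 24.3% of the genes tested, 28.9% of those that rose and 19.6% of those that fell. Myc and control larvae differ in the copy of chromosome 3 that carries uas-myc, and an effect of *Myc* on these genes cannot be told apart from a difference between those chromosomes. Whether the other chromosomes, given as wild type for chromosome 2, also differ between the groups was not tested.

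The direct contrast of Myc with hop shows which of these levels also differed from the STAT supercompetitors. In it 407 genes (3.19% of those tested) were higher in Myc and 427 (3.35%) lower at an adjusted p under 0.05. *dm* was higher in Myc than in hop by 0.99 (adjusted p = 5.09e-04), *Sam-S* by 0.84 (adjusted p = 2.49e-04), *Pdp1* by 0.86 (adjusted p = 0.008) and *Nop60B* by 0.50 (adjusted p = 0.024). *Mpcp*, *sesB*, *CG6767* and *mod* were higher by 0.47, adjusted p = 0.025, 0.62, adjusted p = 0.0051, 0.66, adjusted p = 0.0031 and 0.69, adjusted p = 0.0016, respectively. In hop minus gfp of the same fit, *Pdp1* (0.89, adjusted p = 0.009), *Mpcp* (0.58, adjusted p = 0.0098) and *sesB* (0.41, adjusted p = 0.044) were higher in hop. *dm*, *Sam-S*, *Nop60B*, *CG6767* and *mod* did not pass there (0.17 to 0.42, adjusted p = 0.052 to 0.34). For *Ect3* the difference of Myc from hop was -2.31 (adjusted p = 4.92e-05). *pncr002:3R*, *CG17684*, *laccase2*, *E(spl)m4-BFM*, *pk* and *CG13053* were also lower in Myc than in hop (adjusted p = 4.92e-05 to 0.041). Not past the threshold were *Nlg1* (-0.12), *dor* (0.002), *Np* (0.04), *CG11509* (-0.04), *Spn43Aa* (-0.13), *inv* (-0.37), *Ugt37b1* (-0.56), *CG1894* (0.58), *CG1387* (-0.94) and *CG12481* (-1.20), at adjusted p = 0.062 to 0.99. For *mnd* the difference was 0.22 (adjusted p = 0.37), for *mld* -0.07 (adjusted p = 0.77), for *CG30428* -0.44 (adjusted p = 0.43) and for *CG3397* -0.03 (adjusted p = 0.97), none past the threshold. Of 88 ribosomal protein genes, 9 were higher in Myc than in hop and 0 lower, with a median of 0.30 against 0.02 over all genes, and of 30 nucleolar genes 7 were higher and 0 lower. Of 20 one-carbon genes 4 were higher and 0 lower. Of 21 mitochondrial carriers 4 were higher and 0 lower. For hop minus gfp the median was 0.32 over the ribosomal protein genes, 0.06 over the nucleolar, 0.15 over the one-carbon and 0.04 over the carrier genes. Over all genes tested it was -0.02.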

How the data were processed

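RNA was measured in sorted *dpp*-domain cells. The authors made the deposited raw counts by aligning to dm6 with STAR, removing duplicates with Picard and counting reads on exons with HTSeq, with no version or strand setting given in the sources used here. A further deposited table holds signal values, which the authors made by dividing counts by a size factor per library. Of its values 100% lay within 0.02 of a whole read when multiplied back, and those reads served as an alternative. The labels give polyA RNA and the methods total RNA, and the eye-color genotype also differs between them. Libraries were sequenced in 2 pools that the sources used here do not assign to libraries, so no value within a pool is given.

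Genes kept by filterByExpr (12741 of 16492) were tested with edgeR 4.0.16 (R 4.3.3) by the robust quasi-likelihood test after TMM normalization, with all 9 libraries in 1 fit (6 residual degrees of freedom, common dispersion 0.0488) because the groups then share 1 estimate of the spread. The script was tested on simulated data. Alternatives were other normalizations, filters, tools (DESeq2 1.42.0, limma-voom of limma 3.58.1) and samples. The fit without the robust option was chosen after seeing the data. Symbols were matched to RefSeq and BDGP6 names, 11932 as they stand and 4238 as synonyms, with 322 unmatched.

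The comparison and the 40 gene lists were chosen with earlier results of these data known, and some lists hold genes the study reports. Named genes are *dm*, *Sam-S* and *Nop60B*, genes the study names, the 12 higher and 12 lower with the smallest p (a group mean of at least 5 CPM), the 8 and 8 with the largest fold change (groups apart, a group mean of at least 1 CPM), and up to 4 members of each list. Genes outside this rule are *CG4230*, *CG4860* and those under other observations, named after their values were seen. The planned search for E-boxes in promoters was not run, since no sequence was at hand.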

Additional observations from a re-analysis of the deposited data

Results flagged for a closer look

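The normalized table lists 1434 symbols that the raw table does not, and 617 of them could be tested on the reads recovered from it. Of these, 22 were higher and 3 lower in Myc, and 17 of the 22 and 1 of the 3 are newer names of genes in the raw table. The 2 others that fell were *CG41520*, with 189, 157 and 264 reads in gfp and 54, 44 and 57 in Myc (-1.84, adjusted p = 3.27e-04, the smallest among these symbols), and *robo1* (-0.45, adjusted p = 0.029). The other 5 that rose are all rRNA entries, of 14 such entries tested. *pre-rRNA-Psi:CR45856* had 8568, 8891 and 7330 reads in gfp and 12018, 13619 and 18033 in Myc, a log2 fold change of 0.93 (SE 0.14, edgeR adjusted p = 0.0025). *5.8SrRNA-Psi:CR45863* had 1635, 1686 and 1445 reads in gfp and 2364, 2592 and 3922 in Myc (1.0, adjusted p = 0.0025). *5.8SrRNA-Psi:CR45854* (0.87, adjusted p = 0.0039), *2SrRNA:CR45864* (0.63, adjusted p = 0.018) and *2SrRNA-Psi:CR45858* (1.58, adjusted p = 0.041) rose too. In these 5 entries every Myc library had more reads than every gfp library, and Myc 3 had the most. The 7 entries of 18S and 28S rRNA had fold changes of -0.07 to 0.42 and did not pass. rRNA entries are near-identical copies between which reads can be split, and the selection of the RNA is given differently in the labels and the methods, so these values are uncertain. In the raw table the 2S rRNA entry *CR40677* was at 5256, 4847 and 4601 CPM in gfp and 6148, 7694 and 6786 CPM in Myc (0.49, adjusted p = 0.016), and its call was lost without gfp 1, gfp 2, gfp 3 or Myc 2 (adjusted p = 0.053 to 0.12). In the normalized table the entry of that number, *2SrRNA-Psi:CR40677*, had 134, 123 and 196 reads in gfp and 215, 202 and 285 in Myc (0.76, adjusted p = 0.10) and did not pass, so the tables disagree widely on its level.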

How the results depend on the processing

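The counts of genes higher and lower (225 and 51) went to 249 and 41 with RLE, 188 and 65 with upper quartile normalization, 272 and 45 without a filter on low counts, 252 and 46 under a minimum of 10 counts per library, 282 and 45 with the 6 libraries alone, 245 and 37 with the reads of the normalized table, 221 and 58 by limma-voom and 217 and 46 without the robust option, the last chosen after seeing the data. DESeq2 gave 321 and 96, of which 216 and 44 were shared. At the adjusted p alone the counts were 300 and 64, and at a fold change of at least 2 they were 55 and 21. Leaving out 1 library gave 112 to 303 higher and 11 to 88 lower. Leaving out gfp 1 and Myc 1 gave 146 and 36.

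A block for the replicate number gave 301 genes higher and 122 lower, and 223 and 51 of those were shared with the fit without it. Deviations of same-numbered gfp and Myc libraries correlated at 0.39, 0.15 and 0.09, and the labels give these numbers no meaning, so they were not taken as pairs. Each gfp library correlated better with the Myc library of its own number than with the others, except gfp 3, which did so with Myc 2 (0.22).

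Of 91 named genes that passed the test, 0 changed sign under any of these settings, and 44 lost the call in at least 1 of the fits without 1 library. DESeq2 lost 10 of the 91, limma-voom 8 and the block 0. Depth limits genes at low levels: below a mean of 10 CPM, 24 genes passed the adjusted p alone, and the smallest of their log2 fold changes was 1.03 in size. The search for E-boxes was not run.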

Other observations

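Genes outside the lists made up 117 of the 225 genes that rose, and some of them belong to a few known pathways. They are named here after their values were seen and are given without a test of the group. Enzymes of the tricarboxylic acid cycle were among them. *kdn*, citrate synthase, was at 34.2, 41.9 and 42.7 CPM in gfp and 77.9, 66.4 and 69.6 CPM in Myc (log2 fold change 0.85, SE 0.15, adjusted p = 0.0051). The isocitrate dehydrogenase subunits *l(1)G0156* (0.82, adjusted p = 0.003), *CG6439* (0.94, adjusted p = 0.0027) and *CG5028* (0.84, adjusted p = 0.0029) rose by similar amounts, and the exons of *CG5028* overlap those of *RpL27*. *Mdh2*, malate dehydrogenase, was at 30.5, 27.8 and 36.9 CPM in gfp and 68.6, 62.2 and 61.4 CPM in Myc (log2 fold change 1.01, SE 0.18, adjusted p = 0.0061). *porin*, the channel of the outer mitochondrial membrane, rose from 286 ± 12.1 to 509 ± 12.5 CPM (SD, n = 3; 0.83, adjusted p = 0.0018), and the mitochondrial chaperone *Hsp60* was at 76.8, 80.3 and 98.8 CPM in gfp and 214, 171 and 161 CPM in Myc (log2 fold change 1.09, SE 0.15, adjusted p = 0.0016).

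Further genes of nucleotide synthesis rose beside *CG6767*. *AdSS* and *AdSL*, which convert IMP to AMP, rose by 0.78, adjusted p = 0.0046 and 0.80, adjusted p = 0.023, *r-l*, which makes UMP, by 1.02, adjusted p = 0.005, and *CTPsyn* by 0.63, adjusted p = 0.029. *Nap1*, a histone chaperone, was at 340.4, 329 and 368 CPM in gfp and 668, 636 and 533 CPM in Myc (0.82, adjusted p = 0.0018), and *Ran*, the GTPase of nuclear transport, at 539.6, 541 and 577 and 948, 896 and 882 CPM (0.72, adjusted p = 0.0038). Calls of *AdSL* and *CTPsyn* were lost without gfp 2, gfp 3 or Myc 3 (adjusted p = 0.074 to 0.17) and without gfp 1, gfp 2 or Myc 2 (adjusted p = 0.066 to 0.18), and *Mdh2* above lost its call without gfp 2 (adjusted p = 0.058).

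Among the genes that fell, *phl*, which encodes the kinase Raf, was at 184, 186 and 239.96 CPM in gfp and 75.05, 141 and 91.8 CPM in Myc (log2 fold change -0.99, SE 0.20, adjusted p = 0.019), with Myc 1 the lowest and Myc 2 the highest of the Myc libraries and its call lost without gfp 2, gfp 3 or Myc 3 (adjusted p = 0.064 to 0.09). The matrix metalloproteinase gene *Mmp2* fell from 85.3 ± 7.58 to 52.9 ± 4.32 CPM (-0.69, adjusted p = 0.01) and the laminin gene *wb* from 142 ± 10.9 to 90.02 ± 15.01 CPM (-0.66, adjusted p = 0.012). Their calls were lost without gfp 1, gfp 2 or Myc 2 (adjusted p = 0.055 to 0.086) and without gfp 2, gfp 3 or Myc 3 (adjusted p = 0.059 to 0.1).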
